A study of Mus musculus with 180 samples.

Results

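POU5F1 binding was compared between embryonic stem cells (ESCs) of 2 inbred mouse strains, DBA/2J (D2) and C57BL/6J (B6), over all 42955 regions of the deposited POU5F1 table, which is every region that table holds. The D2 group was the cell lines D29 and D55, and the B6 group was the lines B41 and B51. Each line gave 1 library. The lines carry no transgene or treatment per the labels, and all were kept as naive ESCs, the state that resembles the epiblast before implantation. Chromatin from 10000000 cells per line was immunoprecipitated with the rabbit monoclonal Oct-4A antibody of Cell Signaling (5677S). These 4 libraries belong to a study of 180 samples that also measured P300 and TRIM28 binding, accessible chromatin by ATAC-seq and RNA in ESCs of the same strains. It also covers EpiLCs (epiblast-like cells, into which ESCs turn as they leave the naive state), the F1 hybrid, and the BXD strains, inbred lines descended from a cross of B6 and D2.

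POU5F1 (OCT4) is the POU-family transcription factor without which neither the inner cell mass nor ESCs keep their identity. Its POU domain binds octamer DNA, often beside SOX2 on composite sites, mostly at enhancers that lie away from start sites. P300 is a histone acetyltransferase recruited to active enhancers. TRIM28 is a corepressor that KRAB zinc finger proteins bring to repeated elements.

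The signal of a region was its read count divided by a factor per library, so that libraries sum to about the same total. Differences are given as log2(signal + 1) of D2 minus B6, and a region was called where the adjusted p was under 0.05 (limma with Benjamini-Hochberg adjustment over all regions). The regions held 3818239 and 3584950 reads in the D2 lines and 2718627 and 2225414 reads in the B6 lines, with a median of 68 and 64 reads per region in D2 and 50 and 40 in B6. Log2 signals of the D2 pair correlated across regions at r = 0.931 and those of the B6 pair at 0.892, while pairs of lines of different strains reached 0.799 to 0.830 (across regions, which are not independent). In RNA of 3 lines per strain, Pou5f1 had 832 to 932 normalized units in D2 and 825 to 882 in B6, and its difference did not pass the test (adjusted p = 0.538, limma). The 7 ESC markers summed to 4544 to 4869 units in D2 and 4875 to 5409 in B6. Of these, Nanog was higher in D2 (difference 0.29, adjusted p = 0.0209, limma). Klf4 and Dppa5a were lower (differences -0.22 and -0.42, adjusted p = 0.0483 and 0.0179), and the others did not pass. Markers of feeder fibroblasts, on which ESC lines are often grown, summed to 917 to 1263 units in D2 and 811 to 1083 in B6, led by Col1a1, and none of the 5 passed the test (the smallest adjusted p was 0.34, limma). EpiLC markers were low, 17.7 to 25 units in D2 and 11.9 to 14.8 in B6, without overlap. Of these, Otx2 was higher in D2 (difference 0.80, adjusted p = 0.0266, limma) and Pou3f1 did not pass (adjusted p = 0.851). The part of these marker differences, or of other cells in the cultures, in the binding differences was not tested.

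POU5F1 signal was higher in D2 at 2784 regions (6.48% of those tested) and lower in D2 at 1872 regions (4.36%), 4656 in all (10.8%). The median difference was 0.77 on the log2 scale at the regions higher in D2 and -0.83 at those lower in D2, and over all regions it was 0.01 with an interquartile range of -0.25 to 0.25. Beyond 2-fold, 766 regions were higher in D2 (1.78%) and 591 were lower (1.38%), 3.16% together. Both D2 lines lay on the same side of both B6 lines at 4626 of the 4656 called regions and at 51.9% of all regions. The median signal of the regions higher in D2 was 32.2 and 35.0 in the D2 lines, against 18.1 and 17.8 in the B6 lines. At the regions lower in D2 it was 12.8 and 13.6 in the D2 lines, against 25.3 and 25.8 in the B6 lines. The counts depended on the libraries: without D55, 834 regions were higher in D2 and 882 lower, and without D29, 1436 were higher and 839 lower. Without the moderation of variances along the mean and the robust prior, 1075 were higher and 940 lower.

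The largest differences were described at 12 regions on each side, picked by size among the called regions whose lines did not overlap, so their POU5F1 values are a description. Each of the 24 kept its direction and its call under every alternative scaling, pseudocount, tool and left-out line, where it was tested.

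On the side higher in D2, the differences ran from 2.71 to 3.77 on the log2 scale. Of these 12 regions, 10 lay between genes, 1 in an intron of Gsap and 1 in an exon of 2410141K09Rik. The first was chr13:65990784-65991894 (coordinates of mm10 throughout), with a signal of 82.4 in D29 and 78.3 in D55, against 3.62 in B41 and 6.66 in B51. Both D2 lines stood far above both B6 lines. The same interval differed in P300, with 70.8 and 77.5 in D2 and 4.95 and 4.55 in B6 (difference 3.71, adjusted p = 7.33e-24, limma). ATAC signal there was 28.5 to 30.7 in the 3 D2 lines and 6.07 to 7.01 in the 3 B6 lines, without overlap.

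Part of this group shared sequence. The regions chr10:8551127-8553101, chr10:33795625-33798434, chr9:11105657-11108488 and chr3:16723138-16725372 aligned to each other over 791 to 1815 bases at 82.0 to 88.3% identity (blastn, at least 500 bases at 80%), although they lie on 3 chromosomes. A stretch of 100 bases from each, 5′ to 3′, is shown because all of them hold it within a region that differs by more than 6-fold between the strains. Capitals mark the 19 positions at which the copies are not all equal, and the other 81 positions are identical. The stretch was picked as the ungapped one with the most positions equal in all copies, so it does not stand for their whole length. The bases come from the GRCm38 (mm10) reference, which is a C57BL/6J sequence, so the D2 bases may differ.
chr9:11106162-11106261, plus strand: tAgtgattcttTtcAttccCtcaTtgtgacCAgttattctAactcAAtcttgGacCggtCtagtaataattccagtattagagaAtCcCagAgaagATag
chr10:8552595-8552694, minus strand: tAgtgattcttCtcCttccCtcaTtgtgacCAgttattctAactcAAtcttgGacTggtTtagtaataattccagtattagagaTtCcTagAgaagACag
chr10:33796166-33796265, plus strand: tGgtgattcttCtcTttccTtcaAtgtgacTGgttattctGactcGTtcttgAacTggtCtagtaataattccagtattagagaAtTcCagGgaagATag
chr3:16723529-16723628, plus strand: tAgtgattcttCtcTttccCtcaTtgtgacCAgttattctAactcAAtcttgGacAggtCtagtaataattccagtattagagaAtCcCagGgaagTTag

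The copy at chr10:8551127-8553101, 33.3 kb upstream of Ust (an enzyme that sulfates glycosaminoglycans), had a POU5F1 signal of 94.0 and 90.2 in D2, against 10.5 and 10.2 in B6. The copy at chr10:33795625-33798434, near the sulfotransferase gene Sult3a2, had 99.0 and 97.9 in D2, against 12.3 and 14.7 in B6. The copy at chr9:11105657-11108488 had 112 and 139 in D2, against 18.8 and 16 in B6. In the copy at chr3:16723138-16725372, 53.9 and 55.6 in D2 stood against 7.96 and 7.11 in B6. The lines of the strains were far apart at all of them, and soft-masked (repeat) bases made up 64.2 to 75.5% of their length. TRIM28 varied from copy to copy. It was lower in D2 at chr10:8551127-8553101, with 11.4 to 13.2 in D2 and 23.8 to 30.6 in B6 (difference -1.15, adjusted p = 4.24e-10, limma), and lower at the chr9 copy (difference -0.34, adjusted p = 0.0264). It was higher at the chr3 copy (difference 0.34, adjusted p = 0.0373), and the difference at the other chr10 copy did not pass (adjusted p = 0.429).

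Another 191 POU5F1 regions on 20 chromosomes matched at least 1 of these copies by the same alignment rule. Of them 106 (55.5%) were higher in D2 and 9 (4.71%) lower, where 6.48% and 4.36% of all regions were. Of all regions away from promoters and more than 50% soft-masked, 20.2% were higher and 6.77% lower. The 191 had a median difference of 0.69, with quartiles at 0.17 and 1.38. Their median signal was 34.9 and 36.9 in the D2 lines, against 17.4 and 18.2 in the B6 lines. Only 1 of the 191 lay at a promoter, and their median soft-masked share was 67.2%. P300 was higher in D2 at 96 and lower at 7 of the 182 with a P300 region, and ESC ATAC signal was higher at 128 and lower at 20 of 190. At all overlapped POU5F1 regions, P300 was higher at 8.36% and lower at 4.61%, and ESC ATAC signal was higher at 24.1% and lower at 26.9%. TRIM28 was split, higher at 61 and lower at 43 of 191, where 14.4% and 10.4% of all overlapped regions were. The matching regions are copies of one sequence, so reads that fit several copies could be shared among them, and the placement of such reads is not described in the sources used here.

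Accessibility at 3 of these copies varied together over the 33 BXD ESC lines, a further set of libraries in which each line carries D2 or B6 alleles at a given place. The copies at chr10:33795625-33798434 and chr9:11105657-11108488 correlated at Pearson r = 0.956 and Spearman rho = 0.944 over the 33 lines, and at r = 0.951 without the 2 lines farthest from the median. The copies on chromosomes 10 and 3 gave r = 0.933 (rho 0.911, and 0.921 without the 2 lines), and those on chromosomes 9 and 3 gave r = 0.891 (rho 0.890, and 0.884). The copy at chr10:8551127-8553101 stood apart, with r = 0.30 to the copy on chromosome 9 and 0.32 to that on chromosome 3. The first 3 pairs had a permutation p of 1e-05 each, the smallest that the 100000 permutations can give, and an adjusted p of 0.000637 over the 255 pairs of named regions on different chromosomes. Of those 255 pairs, 5 passed an adjusted p of 0.05, and the median r was 0.06. Over all pairs of regions on different chromosomes, the median r was 0.34 among the 110 copies called higher in D2, with 30.9% of pairs above 0.6. Among the 370 other regions higher in D2 that were more than 50% masked, the median r was 0.17, with 4.05% of pairs above 0.6. The lines share haplotypes with each other, and these values describe the pairs with no test.

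**Figure D1:**
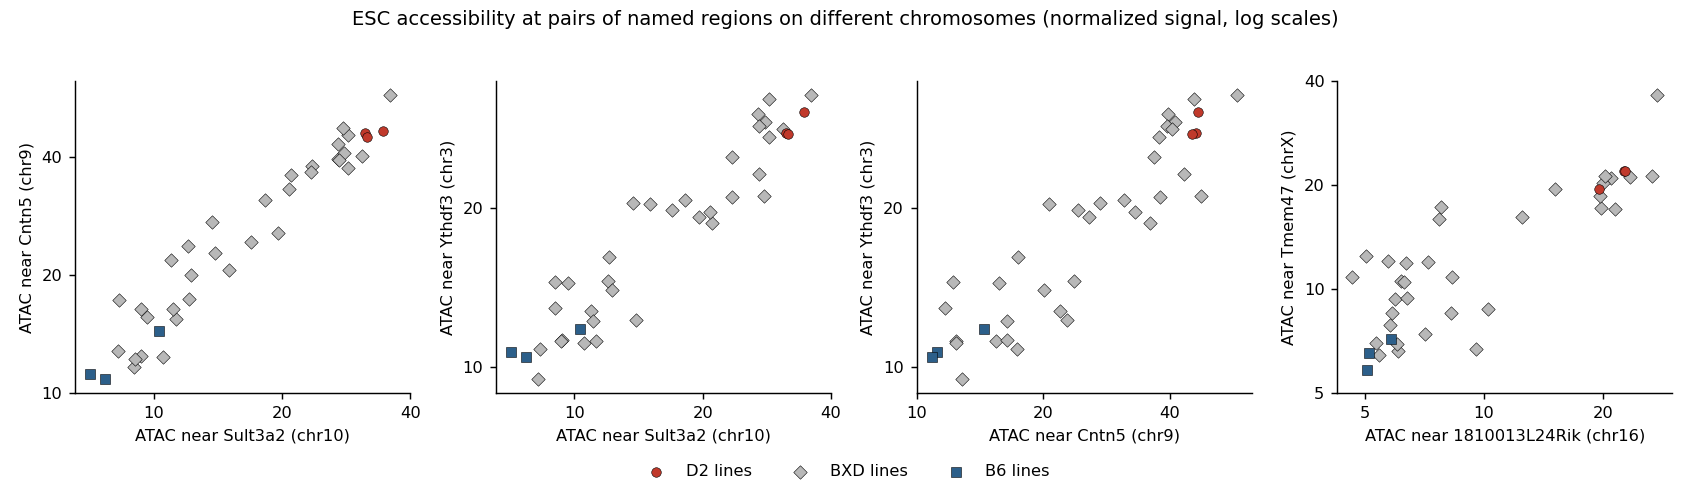
ATAC signal of ESCs at pairs of named regions on different chromosomes, on log axes, labelled by the nearest gene; red circles are D2 lines, grey diamonds the 33 BXD lines and blue squares B6 lines. In the first 3 panels, whose regions share sequence, the BXD lines form a band that runs from the B6 to the D2 values (r = 0.956, 0.933 and 0.891). In the last, 9 lines stand in the upper right, above the largest gap of the chr16 region, which took 14.8% of its log2 range.

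Another pair, without shared sequence, was read by groups of lines. It was picked from the 255 pairs by its values in the same 33 BXD lines. The p-values below do not allow for that choice or for the split. The regions chr16:9132204-9134038 (70.5 and 73.5 in D2, 7.96 and 9.33 in B6) and chrX:80875522-80877119 (37.0 and 56.8 in D2, 3.98 and 7.11 in B6) were both higher in D2 by 2.92 and 2.88. Split at the largest gap of the chr16 region, 24 BXD lines had an ATAC signal of 4.65 to 15.1 there and 9 lines had 19.6 to 27.4. That gap took only 14.8% of the log2 range, so the values alone do not set 2 clear groups apart. The chrX region had 17 to 36.4 in those 9 lines, with a median of 20.9, and 6.43 to 19.5 in the other 24, with a median of 9.94. Within the 9 lines the regions gave Pearson r = 0.73 (exact permutation p = 0.0137, adjusted over both groups 0.0258) and Spearman rho = 0.67 (exact permutation p = 0.0589, adjusted 0.118). Within the 24 lines they gave r = 0.45 (permutation p = 0.0258, adjusted 0.0258) and rho = 0.30 (permutation p = 0.152, adjusted 0.152). Without the 2 lines farthest from the median, r was 0.31 in the 9 lines and 0.07 in the 24, so the relation within groups rests on those lines.

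**Figure D2:**
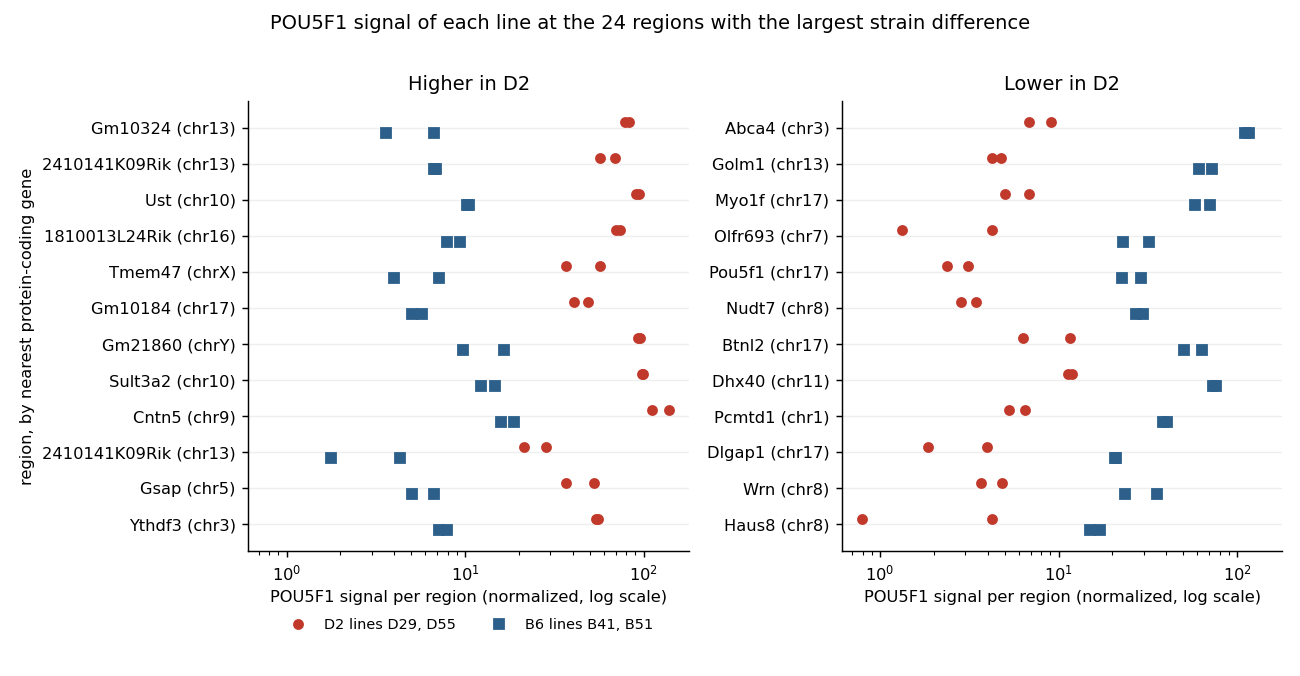
POU5F1 signal of each line, on a log axis, at the 12 regions with the largest positive (left) and the 12 with the largest negative difference (right); red circles are the D2 lines D29 and D55 and blue squares the B6 lines B41 and B51. The lines of a strain lie close together and the strains do not overlap at any of the 24 regions, which were chosen on that basis.

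On the side lower in D2, differences ran from -2.47 to -3.69, and 11 of the 12 regions matched no other POU5F1 region by sequence. The largest was in an intron of Abca4 (a lipid transporter best known from photoreceptors), chr3:122144803-122146452. It had 6.87 and 9.08 in D2, against 117.2 and 110.6 in B6. P300 was lower there as well, with 6.15 and 4.05 in D2 and 33 and 35.1 in B6 (difference -2.54, adjusted p = 1.49e-11, limma).

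The next lay in an intron of Golm1 (a Golgi membrane protein), chr13:59655339-59658730, with 4.75 and 4.26 in D2, against 61.1 and 71.9 in B6. The other readouts were near 0 in D2: ATAC signal was 0.292 to 0.481 in D2 ESCs and 28.8 to 31.1 in B6 ESCs, and TRIM28 was 0.473 to 1.41 in D2 and 21 to 22.4 in B6. Whether the D2 lines carry this stretch was not tested. At chr8:33229664-33231111 POU5F1 had 3.70 and 4.82 in D2, against 35.8 and 23.5 in B6, and TRIM28 and ATAC signal were lower as well (differences -3.41 and -3.82). Presence of that stretch in D2 was not tested either.

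Regions in introns of Myo1f (a myosin of myeloid cells) and Dlgap1 (a postsynaptic scaffold protein) and in an exon of H2-Eb2 (a class II histocompatibility gene) were among the 12. The Myo1f region had 5.02 and 6.81 in D2, against 57.9 and 70.6 in B6. The H2-Eb2 region had 6.34 and 11.6 in D2, against 50.6 and 64.0 in B6. Chromosome 17 held 4 of the 12 regions lower in D2, and with 33599238 to 35491297 as their span, 3 of these lay in or near the histocompatibility complex.

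One of these, chr17:35489788-35491297, lay 15.5 kb upstream of Pou5f1 itself. Its POU5F1 signal was 2.38 and 3.12 in D2, against 22.8 and 28.9 in B6 (difference -2.84 ± 0.35 SE, adjusted p = 8.92e-14, limma). ESC ATAC signal was 0.0975 to 0.355 in D2 and 15.7 to 17.8 in B6, and EpiLC ATAC signal was 0.252 to 0.354 in D2 and 9.54 to 11.3 in B6. Whether the D2 lines carry this stretch, or whether their reads can be placed on it, was not tested. TRIM28 was about level, with 21.1 to 22.3 in D2 and 21.5 to 23.1 in B6 (adjusted p = 0.818), over a wider region that also takes in the sequence to the left. The main region at the Pou5f1 gene, chr17:35501789-35508464, had 185 and 159 in D2 and 162 and 183 in B6, with overlapping lines (difference -0.01, adjusted p = 0.978), and its sign turned without D55 or without B51.

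At 8 of the 12 regions lower in D2 the BXD lines fell into a low and a high group in ATAC signal, with a gap that took 47.9 to 69.9% of the log2 range. At the Golm1 intron 14 lines lay below and 19 above a gap of 69.9%. At the region upstream of Pou5f1, 10 lines lay below and 23 above a gap of 47.9%, and at the region 17.4 kb upstream of Nudt7 (a peroxisomal hydrolase), 13 lay below and 20 above a gap of 51.7%. Whether the lines below the gap carry these stretches was not tested. Over the called regions that overlapped an ATAC region, a median of 19 of the 33 lines were nearer to D2 than to B6 in ATAC signal (midpoint of the strain means) where POU5F1 was higher in D2, and 20 where it was lower. In F1 hybrids, again at overlapped regions only, ATAC signal lay between the D2 and the B6 mean at 67.8% of those higher in D2, at 80.5% of those lower in D2 and at 49.4% of all.

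Some called regions hold a full octamer, ATGCAAAT. Windows of 60 bases around it are shown for regions that bear on the results, on the strand that reads ATGCAAAT, with the octamer in capitals (GRCm38 reference).
Golm1 intron, lower in D2, chr13:59656976-59657035, minus strand: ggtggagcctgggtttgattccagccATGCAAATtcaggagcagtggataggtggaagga
between genes, lower in D2, chr8:33230215-33230274, minus strand: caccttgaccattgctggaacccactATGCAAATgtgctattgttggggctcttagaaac
8.14 kb from Nefm, higher in D2, chr14:68116803-68116862, plus strand: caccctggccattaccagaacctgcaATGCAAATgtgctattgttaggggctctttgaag
6.98 kb from Sox7, lower in D2, chr14:63936481-63936540, plus strand: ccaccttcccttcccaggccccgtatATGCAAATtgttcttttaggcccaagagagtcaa
The octamer, on either strand, was in the central 300 bases of 4.0% of all regions, 4.38% of those higher in D2 and 6.62% of those lower in D2. In equal windows 5000 bases away, on the side of lower coordinates only, it was in 1.66, 1.90 and 1.92%. ACAATG, the core of the SOX site, was in the central 300 bases of 15.4% of all regions, 21.8% of those higher in D2 and 17.5% of those lower in D2. In the windows 5000 bases away it was in 14.8, 16.5 and 16.5%. A match is a stretch of letters in the reference and no measured site.

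Called regions lay away from promoters. Of the regions higher in D2, 9.52% held a protein-coding start site within the region or within 1000 bases of its ends. Of those lower in D2, 15.1% did, while 27.6% of all regions did. Among the remaining, distal regions, the share higher in D2 was larger where more of the region was repeat: 2.08% of the 7485 regions with up to 10% soft-masked bases, 6.63% at 10 to 25%, 12.3% at 25 to 50%, and 20.7% of the 1947 at 50 to 75%. The share lower in D2 was 5.05, 5.12, 4.67 and 6.11% in the same bins. Above 75%, where 400 regions remain, 17.8% were higher and 10.0% lower. Above 50% masked, 20.2% were higher in D2 with all lines and 7.67% without D55, against 2.08 and 0.37% at up to 10%. The names of the repeat families were not used here.

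**Figure D3:**
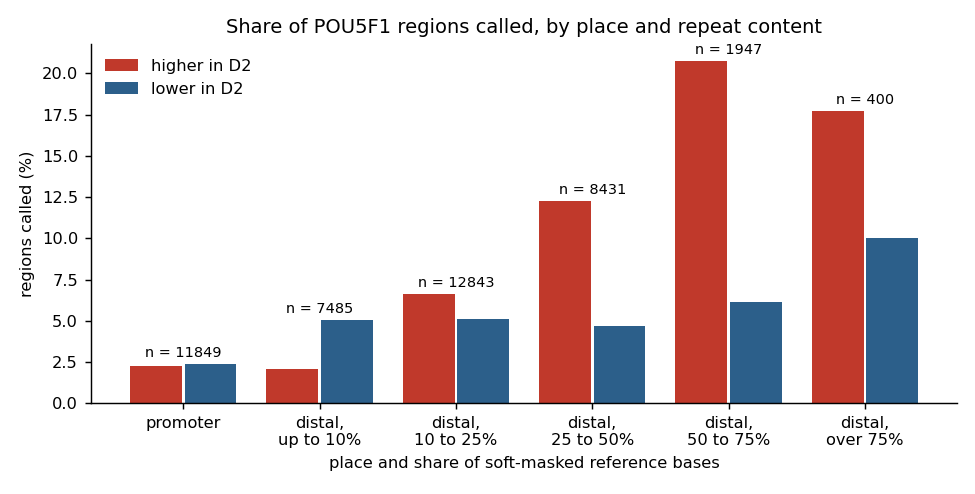
Share of POU5F1 regions called higher (red) and lower (blue) in D2, in percent, for promoter regions and for distal regions by their soft-masked share, with the number of regions above each pair of bars. The red bars run from 2.08% to 20.7% over the first 4 distal bins, and the blue bars stay between 4.67 and 6.11% there.

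Where POU5F1 was called, accessibility was mostly called in the same direction, and P300 at a smaller share of regions. P300 had 2 lines per strain and 11.3% of its regions called either way, against 3 lines and 46.9% for ESC ATAC, so these shares are not on one footing. P300 regions overlapped 93.0% of the POU5F1 regions higher in D2, 64.7% of those lower and 70.5% of all. At the overlapping ones, P300 was higher in D2 at 58.6% of regions where POU5F1 was higher (8.36% at all overlapped regions, and 6.17% of all P300 regions, of which 11.3% were called either way). It was lower in D2 at 46.1% of those where POU5F1 was lower (4.61% at all overlapped regions, and 5.16% of all P300 regions). By limma, 0 overlapped regions had P300 called in the direction opposite to POU5F1 on either side, and at an unadjusted p under 0.05 there was 1 of 2589 where POU5F1 was higher in D2 and 6 of 1211 where it was lower. The differences of P300 and POU5F1 correlated at r = 0.74 across 30300 overlapped regions, which come from the same 4 lines in separate libraries. The number of P300 calls hung on single libraries, with 11399 of all P300 regions called without D55, 1322 without B41 and 1222 without B51, against 4839 with all.

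ATAC regions in ESCs overlapped 96.1% of the POU5F1 regions higher in D2, 90.1% of those lower and 85.2% of all. Accessibility was higher in D2 at 79.2% and lower at 1.01% of those where POU5F1 was higher, and lower at 85.8% and higher at 2.85% of those where it was lower. At all overlapped regions the shares were 24.1% higher and 26.9% lower, and over all ESC ATAC regions 22.2 and 24.7% (46.9% together). Among the few opposite ones was chr9:123926739-123929623, 40511 bases from the chemokine receptor gene Ccr1. It had a POU5F1 signal of 147 and 132 in D2 and 46.3 and 51.1 in B6, while its mean ATAC signal was 14 in D2 and 19.5 in B6 (difference -0.50, adjusted p = 0.00952, limma). Both P300 and ESC ATAC were called in the direction of POU5F1 at 47.7% of the regions higher and 27.7% of those lower in D2.

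After the step to EpiLCs, accessibility still differed at part of these regions. An EpiLC ATAC region overlapped 67.1% of the POU5F1 regions higher in D2 and 72.3% of those lower. Of these, EpiLC accessibility was higher in D2 at 58.1% and lower at 15.6% where POU5F1 was higher in ESCs, and lower at 64.6% and higher at 10.8% where it was lower. At all overlapped regions 22.1% were higher and 45.3% lower, and over all EpiLC ATAC regions 25.6% were higher and 32.6% lower (58.2% together).

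TRIM28 followed POU5F1 least. It was higher in D2 at 32.8% and lower at 13.1% of the overlapped regions where POU5F1 was higher, and lower at 42.5% and higher at 9.86% where POU5F1 was lower (14.4 and 10.4% at all overlapped regions, 19.7 and 18.4% over the whole of TRIM28, 38.1% together). The differences correlated at r = 0.24 across 29524 regions. At chr6:144360678-144362318, 152 kb from Sox5, POU5F1 had 10.3 and 11.1 in D2, against 53.2 and 54.6 in B6, while mean TRIM28 signal was 30.7 in D2 and 11 in B6 (difference 1.46, adjusted p = 3.16e-13, limma). At chr5:72901860-72903247, near Slain2, POU5F1 had 7.92 and 11.6 in D2, against 52.4 and 61.3 in B6, and TRIM28 averaged 52.7 in D2 and 23.4 in B6 (difference 1.16, adjusted p = 2.33e-11).

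**Figure D4:**
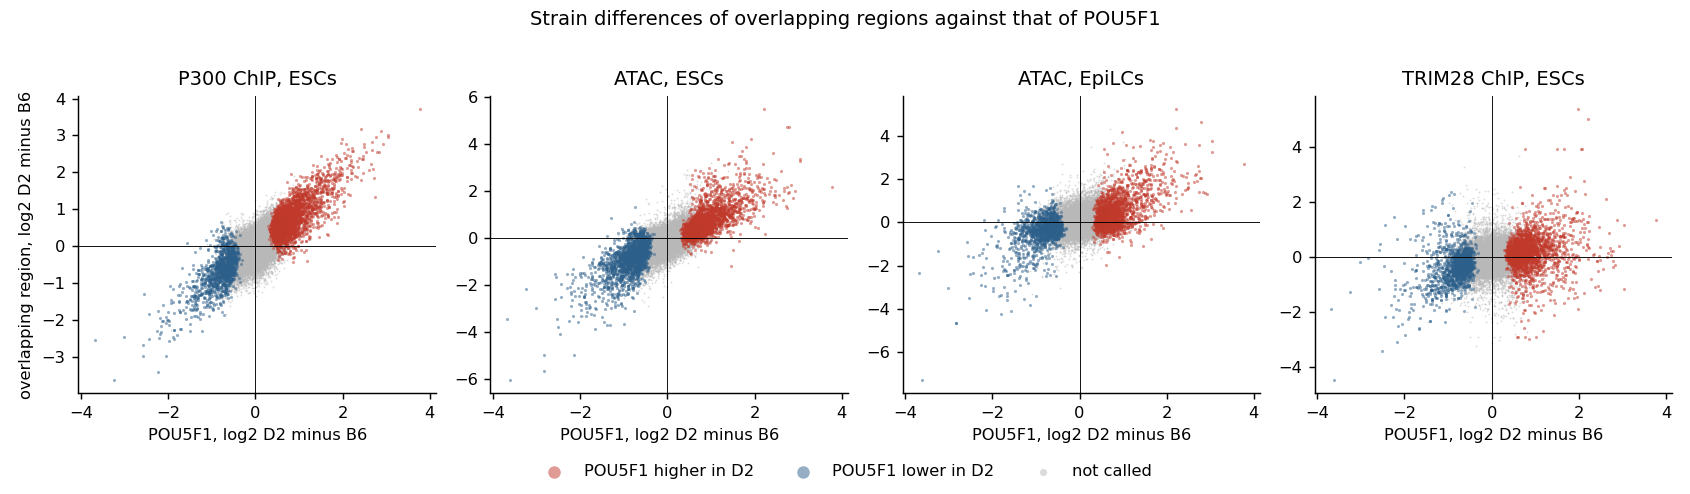
Difference of the overlapping region in P300, ESC ATAC, EpiLC ATAC and TRIM28 against the POU5F1 difference (both log2, D2 minus B6) for each POU5F1 region with an overlap; red, blue and grey points are regions called higher in D2, called lower in D2 and not called for POU5F1. The cloud is narrow for P300 and ESC ATAC (r = 0.74 and 0.69) and wide for TRIM28 (r = 0.24).

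Called regions were gathered in places. In the window chr13:66000001-67000000, 30 of 45 regions were higher in D2 and 4 lower, and in the neighbouring chr13:65000001-66000000, 19 of 29 were higher and 1 lower. KRAB zinc finger genes, whose proteins recruit TRIM28, lie in clusters in this part of the chromosome, and 3 of the 12 regions with the largest positive difference lay in these windows. TRIM28 was higher in D2 at 25 and lower at 4 of 37 overlapped regions in the first window, and higher at 17 and lower at 2 of 25 in the second, where 14.4% and 10.4% of all overlapped regions were.

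On chromosome 17, 22 of 40 regions of the window from 30000001 to 31000000 were higher in D2, all of them between 30462681 and 30915932, a stretch with Btbd9, Glo1 (the glyoxalase that detoxifies methylglyoxal), Dnah8 and Glp1r. Every readout was higher there: over the whole window the median difference was 0.65 for POU5F1, 0.46 for P300, 0.45 for ESC ATAC, 0.67 for EpiLC ATAC and 0.94 for TRIM28, and TRIM28 was higher at 16 of 17 overlapped regions. In the window from 6000001 to 7000000, 27 of 43 were higher in D2, from Tulp4 to Ezr, with medians of 0.71 for POU5F1, 0.65 for P300 and 0.53 for TRIM28. Glo1 is known to vary in copy number among mouse strains. Input libraries and DNA copy number were not analysed here, so their part in these blocks was not tested. Runs of regions lower in D2 were found on chromosome 4, with 17 of 50 between 152000001 and 153000000 (around Chd5 and Kcnab2) and 13 of 48 between 138000001 and 139000000. The first of these runs counted 13 by edgeR. Its medians were -0.45 for POU5F1, -0.64 for P300, -0.40 for ESC ATAC, -0.56 for EpiLC ATAC and -0.29 for TRIM28. Yet ESC ATAC was called lower at only 6 of 36 overlapped regions and EpiLC ATAC at 3 of 40, with 0 higher in either. In the second run ESC ATAC was lower at 22 and higher at 0 of 31. The part of DNA copy number was not tested here either. By chromosome, the share higher in D2 was largest on X (11.2% of 393 regions) and 13 (9.36% of 1762), leaving aside the 10 regions on Y.

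The regions within 50000 bases of genes with known roles were then read by gene list. Of the 74 called regions at listed genes, 48 were higher and 26 lower in D2. Most of these calls are of modest size: 17 of the 74 held under all alternatives run, and 54 were lost without the variance trend and robust prior, 46 without D55 and 32 without D29. Over all regions within that distance of a gene, 9.47% were called, 2046 higher and 1304 lower of 35372.

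At core pluripotency genes, 7 of 78 regions were higher in D2 and 4 lower. At Mycn (a Myc-family factor of self-renewal), 30.6 kb from the start site, the signal was 79.7 and 68.4 in D2, against 35.4 and 33.3 in B6 (difference 1.08 ± 0.15 SE, adjusted p = 5.4e-11, limma), and this call held under all alternatives. At Sox2, the partner of POU5F1 on composite sites, a region 4.60 kb from the start had 80.3 and 104 in D2, against 70.1 and 57.3 in B6 (adjusted p = 0.0015), and one 49.3 kb away had 64.2 and 69.8 in D2, against 41.9 and 44 in B6 (adjusted p = 0.000509). Neither pair overlapped between strains, and Sox2 RNA did not differ by the test (adjusted p = 0.466). At Dppa2, which guards the chromatin of developmental genes in ESCs, 3 of its regions were higher, the closest with 31.7 and 33.8 in D2, against 18.4 and 15.5 in B6.

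Lin28a, which binds let-7 precursors and stops their maturation, stood on the other side. Its start region had 48.1 and 41.1 in D2, against 62.2 and 71.9 in B6 (difference -0.58, adjusted p = 0.00164, limma). A smaller region 0.816 kb away had 7.92 and 6.81 in D2, against 13.4 and 16.4 in B6. Lin28a RNA averaged 81.7 units in D2 and 272 in B6 (difference -1.73, adjusted p = 1.87e-05). At Fgf4, the signal that drives ESCs out of naive pluripotency, a region 15.4 kb away had 9.77 and 15 in D2, against 18.4 and 26.6 in B6 (adjusted p = 0.00798). The lead region of Nanog had 86.6 and 79.5 in D2 and 60.4 and 71.5 in B6, a difference of 0.33 that did not pass (adjusted p = 0.0803). By limma, 0 of the 21 Esrrb regions were called. At an unadjusted p under 0.05 there were 2 higher and 1 lower, and edgeR called 0.

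Among naive pluripotency genes, 17 regions were higher in D2 and 2 lower, and 15.3% of the list's regions were called in all. Klf5, a factor of naive identity and of trophectoderm, had 5 of 9 regions higher, of which the weakest (14.3 and 13.6 in D2, 11.6 and 3.997 in B6) lost its call in 8 of 11 alternatives. The firmest, 33.5 kb from the start, had 45.2 and 52.5 in D2, against 26.8 and 25.8 in B6 (difference 0.87, adjusted p = 1.26e-05, limma). A region 49.3 kb from Klf4 (a reprogramming factor) had 27.7 and 27 in D2, against 7.96 and 7.99 in B6 (difference 1.66, adjusted p = 2.2e-09). Klf4 RNA was lower, with 251 units on average in D2 and 292 in B6 (difference -0.22, adjusted p = 0.0483). The region 13.9 kb from Zfp42 (Rex1, a naive marker) had 19.5 and 17.9 in D2, against 9.40 and 7.11 in B6 (adjusted p = 0.00181).

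At Spp1 (osteopontin) the strains differed in both directions. A region 28.4 kb upstream had 32.2 and 37.7 in D2, against 8.68 and 12.9 in B6 (difference 1.63, adjusted p = 8.87e-12, limma), and its mean ATAC signal was 10.5 in D2 and 1.24 in B6. The start region had 40.7 and 42.3 in D2, against 51.7 and 67.9 in B6 (difference -0.51, adjusted p = 0.0113). At Prdm14, a repressor of the primed state, both called regions were higher in D2 (42.3 and 48.0 kb from the start), as was its RNA (difference 0.47, adjusted p = 0.00421). Tet2, a DNA demethylase, had 2 regions higher and its start region lower in D2. That start region had 19 and 15.9 in D2, against 30.01 and 32.4 in B6. At Dppa5a, a naive marker, 216 and 221 in D2 stood against 163 and 178 in B6 (difference 0.36, adjusted p = 0.00257), while its RNA was lower in D2 (difference -0.42, adjusted p = 0.0179).

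**Figure D5:**
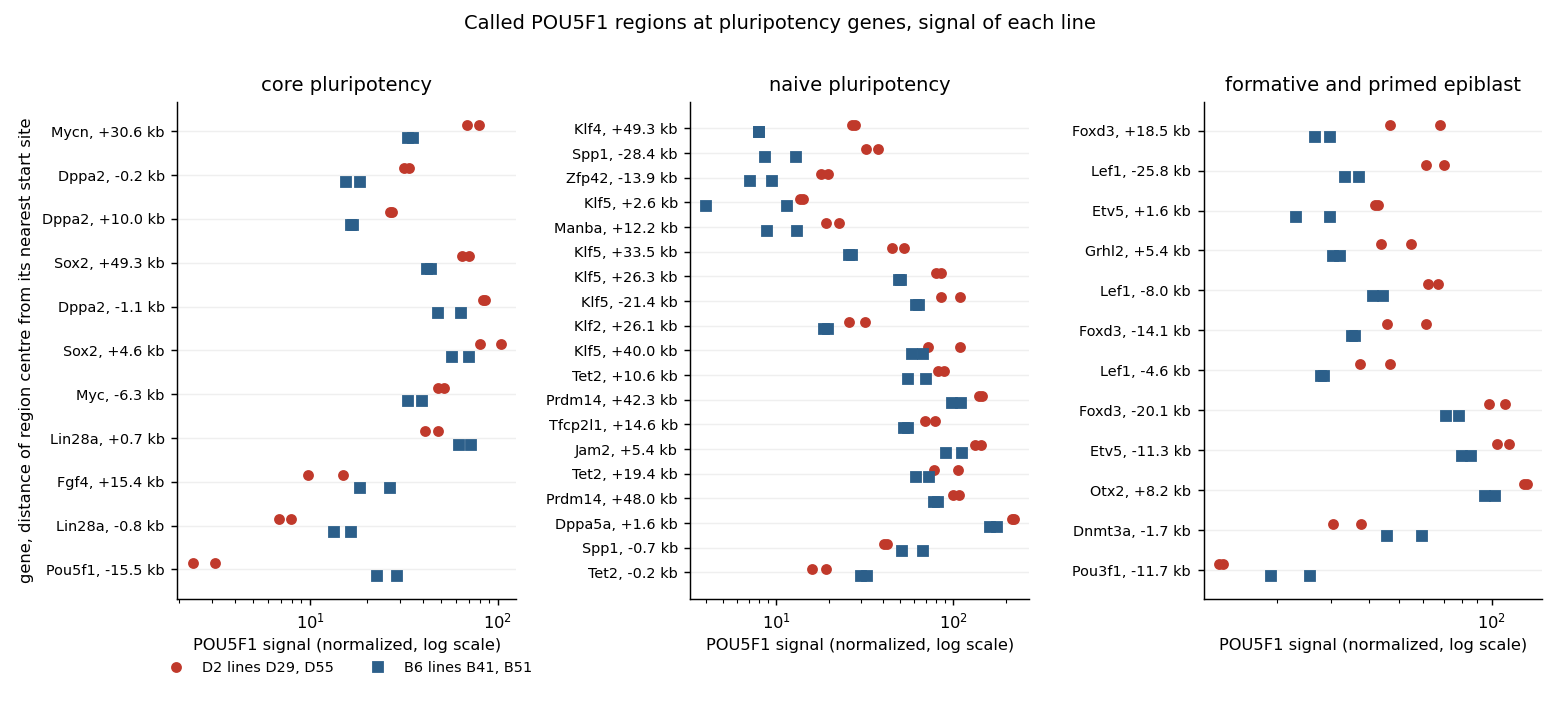
POU5F1 signal of each line, on a log axis, at the called regions of core, naive and formative or primed pluripotency genes, labelled by gene and distance from its start site; red circles are the D2 lines D29 and D55 and blue squares the B6 lines B41 and B51. At Mycn the D2 lines stand at 79.7 and 68.4 and the B6 lines at 35.4 and 33.3, and at the region upstream of Pou5f1 the D2 lines stand far to the left.

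Genes of the formative and primed epiblast had 10 of 102 regions higher in D2 and 2 lower. Foxd3 (a factor that primes enhancers on exit from naive pluripotency) and Lef1 (a Wnt effector) had 3 each. The firmest at Foxd3, 18.5 kb from the start, had 46.7 and 67.8 in D2, against 29.7 and 26.6 in B6 (difference 0.98, adjusted p = 1.15e-07, limma). That at Lef1, 25.8 kb upstream, had 70.0 and 61.0 in D2, against 33.3 and 36.9 in B6 (difference 0.88, adjusted p = 4.54e-07). Otx2, which directs POU5F1 to primed enhancers, had 128 and 131 in D2, against 95.5 and 103 in B6 (difference 0.38, adjusted p = 0.0108). RNA of Foxd3, Lef1 and Otx2 was higher in D2, by 0.43, 0.59 and 0.80 on the log2 scale.

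In the lists of differentiated lineages the called share was 17.02% at neuroectoderm, 17.9% at primitive endoderm, 8.33% at trophectoderm and 5.13% at mesendoderm genes. Over all regions near genes it was 9.47%. These lists hold only 47, 28, 48 and 39 regions, and several calls lie at 1 gene, such as Sox11 or Hnf4a. Whether the shares differ from that of all regions was not tested. At neuroectoderm genes 2 of 47 were higher in D2 and 6 lower. Sox11 (a neural progenitor factor) had 3 regions lower, the farthest, 47.6 kb away, with 10.0 and 13.1 in D2, against 54.2 and 52.0 in B6 (difference -2.12, adjusted p = 6.93e-25, limma). Olig1 and Olig2, factors of oligodendrocytes and motor neurons, had 1 each, and RNA of all 3 genes was lower in D2, Sox11 by -2.62. Nefm (a neurofilament) went the other way, with 48.6 and 52.8 in D2, against 12.7 and 11.5 in B6 (difference 1.98, adjusted p = 9.87e-22), and RNA of 52.8 units in D2 and 3.19 in B6 on average.

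In primitive endoderm, 4 of 28 regions were higher and 1 lower. Sox7 (an endoderm SOX factor) had 12.4 and 13.3 in D2, against 52.1 and 58.6 in B6 (difference -2.02, adjusted p = 4.18e-24, limma). Hnf4a (a visceral endoderm factor) had 3 regions higher, and its low RNA was higher in D2 (3.29 units in D2 and 0.921 in B6 on average). Of 48 trophectoderm regions, 3 were higher (at Elf5, Tfap2a and Tead4) and 1 lower (at Krt7). Tfap2a RNA averaged 21.2 units in D2 and 1.76 in B6 (difference 2.99, adjusted p = 4.4e-06). At mesendoderm genes 2 of 39 regions were lower, at Gsc and Foxa2. Of the 39, 0 were higher by limma or edgeR, and 2 were higher at an unadjusted p under 0.05.

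At signalling genes the called shares were 8.0% at FGF-ERK and 5.36% at LIF-STAT3 genes, against 9.47% of all regions near genes. They rest on 6 and 3 called regions, and a difference from that share was not tested. Of 75 regions at FGF-ERK genes, 6 were lower in D2 by limma and by edgeR, and 0 were higher by either, with 14 lower and 6 higher at an unadjusted p under 0.05. Of the 6, 4 lay at Spry2, a feedback inhibitor of receptor tyrosine kinase signalling, and the firmest, 35.0 kb downstream, had 19.3 and 22.4 in D2, against 46.3 and 53.3 in B6 (difference -1.22, adjusted p = 4.36e-10). Spry2 RNA averaged 32 units in D2 and 108 in B6 (difference -1.77, adjusted p = 0.000228). The other 2 lay at the receptor gene Fgfr2. At LIF-STAT3 genes, which sustain naive ESCs, 3 of 56 regions were higher in D2, at the receptor genes Lifr and Il6st, each losing its call in 5 to 8 of 12 alternatives, and 0 were lower by limma, by edgeR or at an unadjusted p under 0.05. Of 42 regions at DNA methylation genes, 3 were higher and 3 lower. Dnmt3l, a cofactor of the de novo methyltransferases, was higher in D2 at its start region, with 90.6 and 77.8 in D2, against 58.6 and 54.2 in B6 (difference 0.57, adjusted p = 0.000653), and in RNA (difference 1.45). Tet3, a dioxygenase that oxidises methylcytosine, had a region lower by -0.47 and RNA higher by 1.46. Among chromatin partners of POU5F1, Setdb1, a histone methyltransferase that works with TRIM28, had a region with 11.4 and 12.5 in D2, against 26.04 and 21.3 in B6 (difference -0.93, adjusted p = 0.00154, limma).

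RNA of nearby genes differed more often in the same direction. Among the 1255 genes tested for RNA that were nearest to a region higher in D2 (within 50000 bases), RNA was higher in D2 for 35.0% and lower for 12.7%. Among the 775 nearest to a region lower in D2, it was lower for 38.2% and higher for 12.6%. For all 9163 genes nearest to any region the shares were 18.5% higher and 19.7% lower (17.3 and 20.3% of all 12694 genes tested, 37.6% together). A gene near regions of both kinds counts in both.

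The genes with the largest RNA differences were read for POU5F1 regions within 50000 bases. Of the 10 higher in D2, 6 had at least 1 region higher. Of all 11922 genes tested for RNA with a start site in the annotation, 20.5% had a region higher in D2 at that distance and 13.1% a region lower. Aass, an enzyme of lysine breakdown, had RNA of 48.5, 25.1 and 35.6 units in D2, against 0.728, 0.756 and 0.694 in B6. Its region chr6:23088862-23091485 had 115.9 and 126 in D2, against 18.4 and 21.3 in B6 (difference 2.55, adjusted p = 5.86e-61, limma). Pramel7, a gene of the naive state, had 4 of 5 regions higher, the lead with 92.4 and 121 in D2, against 45.2 and 39.97 in B6. Of the 10 lower in D2, 8 had at least 1 region lower, of which Olig1 and Olig2 share the same regions. Nod1, a sensor of bacterial peptides, had 4 of 7 lower, the largest difference being 15.6 and 15.3 in D2, against 60.4 and 71.1 in B6 (difference -2.02, adjusted p = 1.02e-27). Others differed in RNA with no called region. Apoc2, an activator of lipoprotein lipase, had RNA of 25 to 31 units in D2 and 0.833 to 1.15 in B6, and 0 of its 11 regions were called by limma or edgeR, with 2 higher at an unadjusted p under 0.05. The single region near Gm2000 had 10.0 and 12.2 in D2 and 10.5 and 12 in B6, although its RNA averaged 0.528 units in D2 and 292 in B6.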

How the data were processed

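POU5F1 ChIP-seq of 4 ESC lines was analysed, with ATAC-seq, P300, TRIM28 and RNA data of the same strains as further readouts. The members and gene lists were chosen with earlier results of these data known. The authors deposited a normalized signal per region or gene, and log2 values for the table with F1 hybrids; per the submitters' processing notes Bowtie 1.0.0, HISAT2 2.0.5, MACS 1.4.2 and the mm10 genome were used, with no role or order stated. Peak calling, pooling, inputs, the strain of the genome used for D2 reads and the placement of multi-mapping reads are not stated by the sources used here. Of the deposited POU5F1 values, 100% were whole multiples (within 0.05) of what 1 read is worth, so read counts were recovered. RNA values carry no such step, so their depth is unknown, and they are not scaled to length, so genes are not compared with each other.

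Each readout was fitted with limma 3.58.1 (trend and robust) on log2(signal + 1) for POU5F1, P300 and RNA (mean of at least 0.5) and log2(signal + 0.1) for ATAC and TRIM28, 2 or 3 lines per strain, with Benjamini-Hochberg adjustment over the whole table. A fold change on this scale understates that of low regions. The fit was tested on simulated data. As an alternative added after seeing the files, edgeR 4.0.16 (quasi-likelihood) was run on the recovered POU5F1 reads, and it called 2764 regions higher and 1890 lower. Titles number both D2 libraries as replicate 1, so POU5F1 has no pairing. Whether lines are separate derivations is not stated, so p-values measure the spread between these lines.

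Named regions were the 12 with the largest difference on each side among called regions whose lines do not overlap, kept 10000 bases apart. Named genes were the called and lead regions of 11 lists and the 10 genes with the largest RNA difference each way. Regions were assigned to the nearest protein-coding start site (GENCODE M21), overlaps (at least 1 base) were found with bedtools 2.31.1, and sequences came from the GRCm38.p6 reference. Marker genes Gata6, Sox17 and Fgf5 were not analysed here, and 1 listed gene is not reported here.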

Additional observations from a re-analysis of the deposited data

Results flagged for a closer look

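At 7 regions that were called for POU5F1 at listed genes, the 3 D2 lines lay on one side of the 3 B6 lines in ESC accessibility and on the other side in EpiLC accessibility. The difference between the cell states was not tested, and no value below bears on its cause. How many other regions do the same is not given here. Over all POU5F1 regions with an EpiLC ATAC region, the EpiLC difference had a median of -0.13 and quartiles of -0.30 and 0.16. The EpiLC differences below at Sox2, Tet2 and Setdb1 are therefore of a common size. At the Sox2 region 4.60 kb from the start site, POU5F1 was higher in D2, ESC ATAC differed by 0.09 (not called) and EpiLC ATAC by -0.30. At Lef1, ESC ATAC was higher in D2 by 0.49 at the region 25.8 kb upstream and by 0.19 at the region 8.04 kb upstream, while EpiLC ATAC was lower by -0.55 and -0.46. At Tet2, ESC ATAC was higher in D2 at both of the regions concerned, by 0.35 at 10.6 kb from the start and by 0.27 at the start, while EpiLC ATAC was lower by -0.20 and -0.25. At the Sox11 region 30.4 kb from the start, ESC ATAC was lower in D2 by -0.90 and EpiLC ATAC higher by 0.44. At the Setdb1 region 13.1 kb from the start, ESC ATAC was lower in D2 by -0.63 and EpiLC ATAC differed by 0.15 (not called). No group of this comparison has 4 or more samples, so single lines could not be checked as outliers.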

How the results depend on the processing

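The 24 named regions kept direction and call under all alternatives that tested them (2 fell under the filter on low values). Of 4656 called regions, 2015 were called without variance trend and robust prior (1075 higher, 940 lower in D2) and 1357 beyond 2-fold as well (766 and 591). Leaving out 1 line gave 1716 to 4497 calls (higher 834 to 2751, lower 839 to 1746), with 1716 (834 higher, 882 lower) without D55 and 2275 (1436 higher, 839 lower) without D29. Equal library totals gave 2366 higher and 2190 lower, quantile normalization 2385 and 1990. P300 calls ran from 1222 to 11399 without 1 library (higher 985 to 5725, lower 223 to 5674), with 1322 without B41 (985 higher, 337 lower), 1222 without B51 (999 higher, 223 lower) and 1551 higher without D29, and 1305 were lower with the filter on low values. RNA calls lower in D2 ran from 1712 to 2862 without 1 library. With an overlap of at least 50% of the POU5F1 region, P300 covered 68.5% of all and 91.7% of D2-higher regions; ESC ATAC covered 75.1, 84.3 and 77.9% of all, D2-higher and D2-lower regions, EpiLC ATAC 61.8, 51.1 and 64.2%, and TRIM28 65.5, 81.6 and 64.6%. Promoters within 2500 bases held 33.9% of all, 15.9% of D2-higher and 20.6% of D2-lower regions. The lead region of Pou5f1 turned to 0.0791 without B51 and to 0.098 without D55, and that of Klf4 to -0.0399 without D55; neither was called. The cause of these shifts was not tested, beyond fewer samples or a stricter rule. No POU5F1 fit with a replicate block was possible. With the replicate number as a block, calls numbered 5397 for P300, 47836 for ESC ATAC, 57068 for EpiLC ATAC, 36930 for TRIM28 and 3470 for RNA, within 1.5 times of those without it. With 40 to 68 reads in the median region, small differences at weak regions were not detectable.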

Other observations

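The region with the highest POU5F1 signal, chr17:39842297-39849527, stood apart from all others. It had 2702 and 2903 in D2, against 3696 and 4500 in B6 (difference -0.54, adjusted p = 3.45e-10, limma), while the next region, near Myo10, had 354 and 329 in D2 and 302 and 347 in B6. On chromosome Y, 4 of the 10 regions were higher and 4 lower in D2, and chrY:90802392-90809854 had 86.1 and 94.2 in D2, against 252 and 474 in B6, without passing the test (adjusted p = 0.106). These values were picked after they were seen. Input libraries were not analysed, and the placement of reads that fit several places is not stated by the sources used here. Whether the signal at chr17:39842297-39849527, or its difference between the strains, reflects POU5F1 binding was not tested.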
